A study of Saccharomyces cerevisiae with 21 samples.

Results

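This report sets 5 ribose-seq libraries of yeast carrying rnh203-K46W beside 3 libraries of yeast carrying rnh201-G42S, which are 8 of the 17 ribose-seq libraries and of the 21 samples in the series. The libraries were chosen by the genotype in their titles. Both changes were made in BY4742, a laboratory strain of Saccharomyces cerevisiae, to mirror substitutions found in Aicardi-Goutières syndrome, and all cells were grown to stationary phase. The rest of the series holds 6 wild-type (WT) libraries, 3 rnh201-null libraries and 1 DNA sequencing sample for each of the 4 genotypes. One label field of the rnh203-K46W samples writes the change as rnh201-K46W, whereas the titles and the design text write rnh203-K46W, which was followed. The labels do not say whether the libraries of a genotype came from separate clones or cultures, so the p-values measure the spread between these libraries, which may be technical. No value in the table reads the mutated codon, so the genotypes themselves were not checked.

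DNA polymerases place some ribonucleotides in DNA, and ribonuclease H2 (RNase H2) cuts beside them to start their removal from nuclear DNA. The enzyme has a catalytic subunit, Rnh201 in yeast, and the accessory subunits Rnh202 and Rnh203, which the catalytic subunit needs for activity in the cell. It is not known to act in mitochondria, so ribonucleotides in mitochondrial DNA serve as an internal standard in such libraries. Aicardi-Goutières syndrome is an inherited inflammatory disease in which each of the genes of the human enzyme can be mutated. rnh201-G42S changes the catalytic subunit and rnh203-K46W an accessory one, and the comparison asks how far the amount and the placement of embedded ribonucleotides differ between them.

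Ribose-seq selects fragments of DNA with a ribonucleotide at one end and reads off where it lay and on which strand. The deposited value is an enrichment factor, a ratio that behaved as a library constant times the number of reads at a position, divided by the DNA depth there in the genotype's own DNA sample. Nuclear and mitochondrial values were each scaled to the length of their compartment, so the 2 compartments are treated apart. Whole read numbers could be recovered from the ratios. The rnh203-K46W libraries, in the order of replicates 1 to 5, held 78541, 7291, 249639, 1852994 and 573211 nuclear reads, and the rnh201-G42S libraries, replicates 1 to 3, held 977264, 1453745 and 4107022. In mitochondrial DNA the rnh203-K46W libraries held 796334 to 28806677 reads and the rnh201-G42S libraries 361637 to 1596740. rnh203-K46W replicate 2 had by far the fewest nuclear reads. The main differences in library values and the counts of calls are given with that library and without it. Counts of windows, chromosomes and mitochondrial positions without overlap are given with it only. The reads carry no molecular identifiers, so repeated reads at a position need not be separate molecules.

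The libraries did not group by genotype in mitochondrial DNA. Average-linkage clustering of the mitochondrial profiles in 200-bp windows by strand gave 2 sets that each held both genotypes. Set A held rnh203-K46W replicates 1, 2 and 4 and rnh201-G42S replicates 1 and 3, and set B held rnh203-K46W replicates 3 and 5 and rnh201-G42S replicate 2. Libraries of different genotypes in one set had a mean Spearman correlation of 0.804 (range 0.649 to 0.936, 8 pairs), and libraries of one genotype in different sets had 0.278 (0.169 to 0.373, 8 pairs). Since the sets were cut from these same correlations, higher values within a set follow in part from the clustering. Per the labels, up to 3 sets of restriction enzymes were used to cut the DNA, and which library received which is not given in the sources used here. What divides the sets was not tested, and the within-set values stand beside the results they change.

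**Figure D1:**
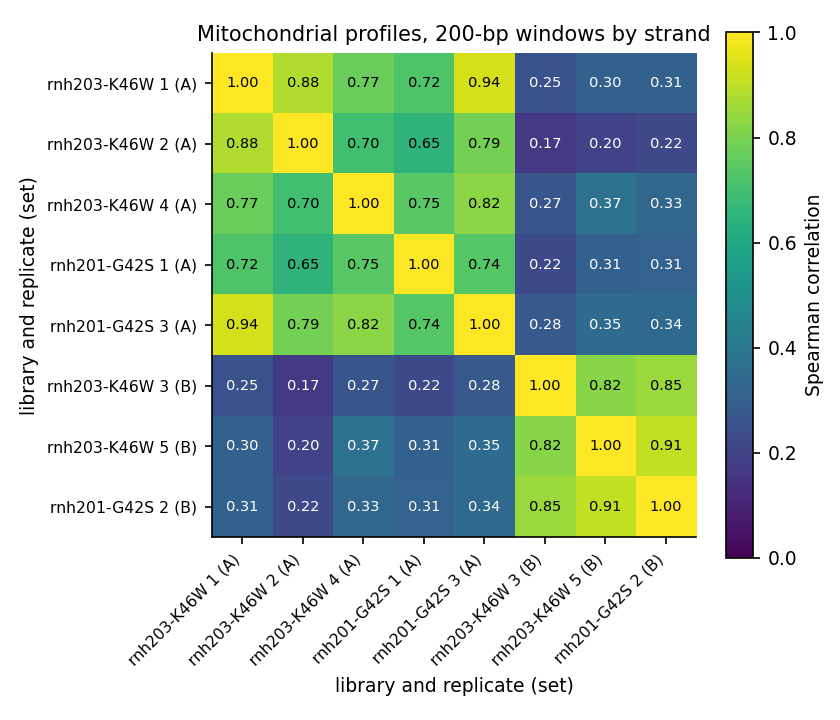
Spearman correlation between the mitochondrial profiles of the 8 libraries, in 200-bp windows by strand, with the set in brackets. Correlations are 0.65 to 0.94 between libraries of one set and 0.17 to 0.37 between libraries of different sets, whichever genotypes are paired.

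The genotypes were far apart in the amount of nuclear relative to mitochondrial ribonucleotides. Density was taken as reads per base and per DNA depth. The nuclear density over the mitochondrial, on the log2 scale, was -6.75, -9.14, -7.94, -6.15 and -6.53 in rnh203-K46W replicates 1 to 5, against 0.68, 1.11 and 0.57 in rnh201-G42S replicates 1 to 3. All 5 rnh203-K46W libraries were far below 0 and all 3 rnh201-G42S libraries above it on this scale, and the side of 0 in rnh201-G42S depended on the scale, as given below. The means were -7.30 ± 1.23 (SD, n = 5) and 0.79 ± 0.28 (SD, n = 3), a difference of -8.09 on the log2 scale. The two-sided exact permutation test gave p = 0.0357, the smallest that 5 libraries against 3 allow. Over the 6 tests on library values the Benjamini-Hochberg adjusted p was 0.0536 in this permutation test, which misses 0.05. Without rnh203-K46W replicate 2 the difference was -7.63, where 4 against 3 cannot go below p = 0.0571 in an exact permutation test. It was -7.97 within set A and -8.34 within set B.

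For orientation, the same ratio was -7.32 ± 1.32 (SD, n = 6) in WT libraries, with a range of -9.62 to -6.01 that encloses all 5 rnh203-K46W libraries. In rnh201-null replicates 1 to 3 it was -1.38, 1.76 and 1.73. Replicate 1 is shallow, with 1435 nuclear positions against 1535413 and 1334066 in the others. The 3 rnh201-G42S libraries lay above replicate 1 and below the 2 deeper rnh201-null libraries. No test was made of these placings here.

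The read numbers alone, without DNA depth, also set the genotypes apart. Reads from mitochondrial DNA were 95.8, 99.1, 98.0, 94.0 and 95.6% of the reads in rnh203-K46W libraries, against 27.0, 21.6 and 28.0% in rnh201-G42S libraries. The DNA samples differed as well, with 1 sample per genotype and so no replicate check. The median mitochondrial DNA depth was 4095 in the rnh203-K46W sample and 11384 in the rnh201-G42S sample, which is 23.5 and 70.3 times their own nuclear medians of 174 and 162. With recovered reads not divided by DNA depth, the difference between the genotypes was -6.61 on the log2 scale in place of -8.09. The ratio was then -13.9 to -11.1 in rnh203-K46W libraries and -5.77 to -5.27 in rnh201-G42S libraries, below 0 in both. Counting each detected position once gave a difference of -3.98, with -10.5 to -3.59 in rnh203-K46W libraries and -3.06 to -1.75 in rnh201-G42S libraries, again below 0 in both.

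**Figure D2:**
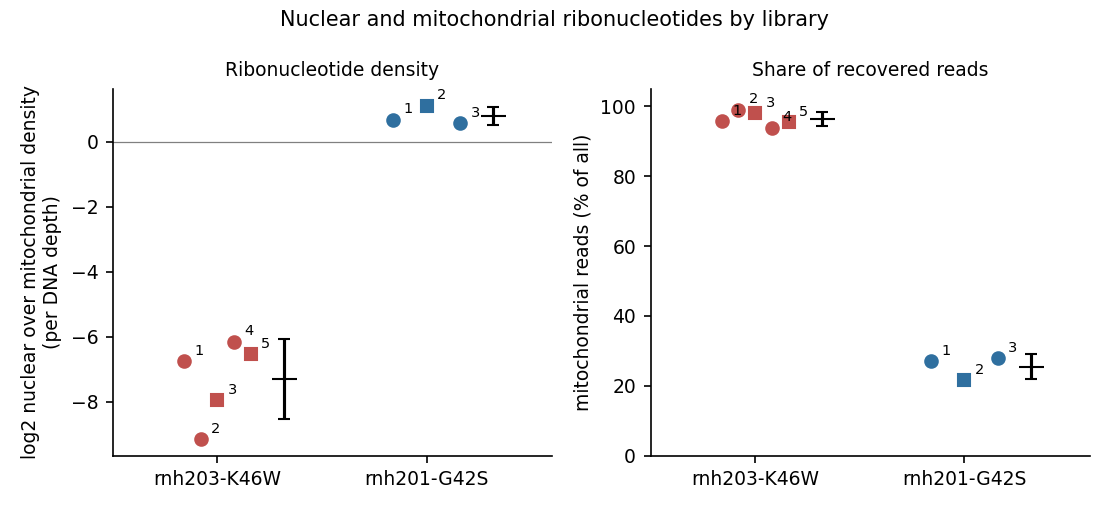
Left, nuclear over mitochondrial density of ribonucleotides per DNA depth, on a log2 axis. Right, mitochondrial reads as a percentage of all recovered reads. Points are libraries numbered by replicate, circles set A and squares set B, and black bars the mean ± SD. The rnh203-K46W libraries lie at or below -6.15 and the rnh201-G42S libraries at or above 0.57 in the left panel.

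The strand that carried the ribonucleotides also differed along the nuclear chromosomes. Replication forks run in set directions between origins, and the leading and the lagging strand are copied by different polymerases, so ribonucleotides left in nuclear DNA can favour one strand over long stretches. Strand asymmetry, the difference of plus- and minus-strand signal divided by their total, was taken in 10-kb windows and regressed on the mean asymmetry of rnh201-null replicates 2 and 3, a profile that shares no library with either genotype. The slope was 0.484, 0.344, 0.0967, 0.158 and 0.118 in rnh203-K46W libraries, against 0.922, 1.30 and 0.737 in rnh201-G42S libraries. The groups did not overlap. The mean slope was 0.24 ± 0.17 (SD, n = 5) in rnh203-K46W and 0.99 ± 0.29 (SD, n = 3) in rnh201-G42S, a difference of -0.75 (two-sided exact permutation test, p = 0.0357, again the lowest this design allows; 0.0536 after adjustment over 6 tests). Without rnh203-K46W replicate 2 the difference was -0.77, and it was -0.50 within set A and -1.19 within set B.

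The lower slope was spread over the genome. The mean slope was lower in rnh203-K46W on 16 of 16 nuclear chromosomes, and on 10 of them every rnh203-K46W library lay below every rnh201-G42S library. Chromosome IV, the longest, gave 0.17 ± 0.22 (SD, n = 5) in rnh203-K46W and 1.08 ± 0.21 (SD, n = 3) in rnh201-G42S. Across the windows Pearson's r with the rnh201-null profile was 0.101 to 0.292 in rnh203-K46W libraries and 0.477 to 0.734 in rnh201-G42S libraries. These correlations run over windows, which are not replicates. The rnh201-null libraries 2 and 3 matched each other only in part, with r = 0.341 over windows, and the 2 sets of the 8 libraries were not defined for them. With all 3 rnh201-null libraries in the profile, the first of which is shallow, the difference in slope was -0.22. In WT libraries, which hold 639 to 36638 nuclear positions each, the slope ranged from 0.00991 to 1.46.

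**Figure D3:**
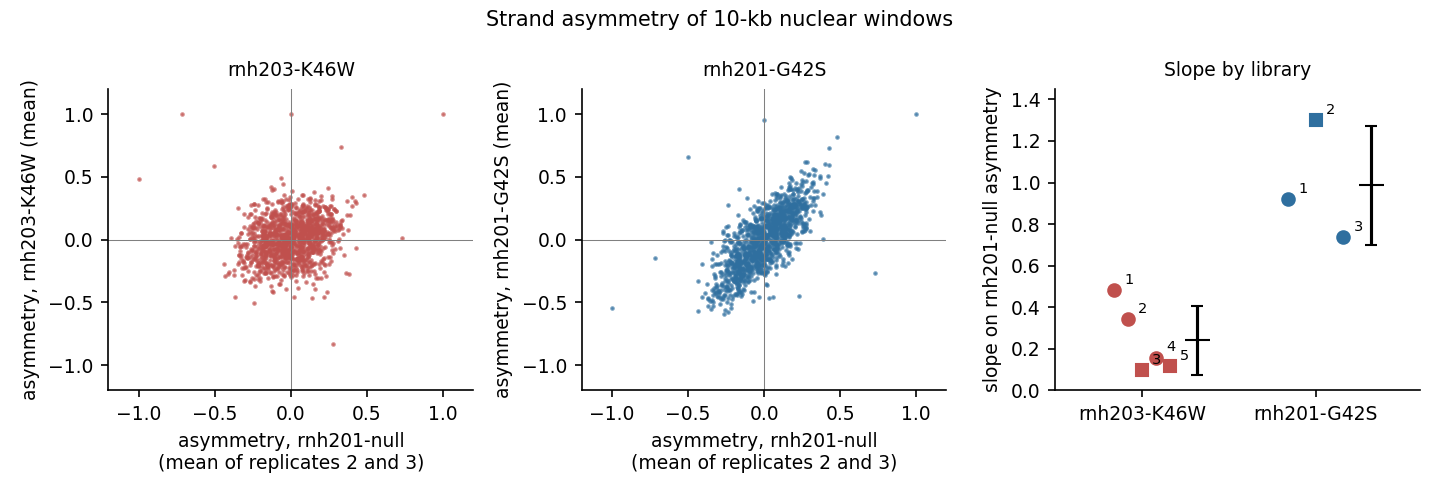
Strand asymmetry of 10-kb nuclear windows in rnh203-K46W (left, mean of 5 libraries) and rnh201-G42S (middle, mean of 3) against the mean of rnh201-null replicates 2 and 3, where each point is a window. The right panel gives the slope of each library, with circles for set A, squares for set B and black bars for the mean ± SD, and the rnh203-K46W slopes end at 0.484, below the lowest rnh201-G42S slope of 0.737.

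No single 10-kb window passed the test of asymmetry. In limma on log2 of plus over minus, 0 of 1214 windows (0%) had an adjusted p under 0.05, and 144 had an unadjusted p under 0.05. Without rnh203-K46W replicate 2 these counts were 0 and 238. The libraries of the 2 genotypes did not overlap in 63 windows that were higher in rnh203-K46W (5.19%) and in 66 that were lower (5.44%). Among these, the mean of the rnh201-null libraries had the sign opposite to the difference in 56 of the 63 higher windows and in 61 of the 66 lower ones, and the mean of rnh201-G42S had it in 60 and 66. Over all 1214 windows, overlapping or not, the rnh201-null mean had the sign opposite to the difference in 71.0%, and the rnh201-G42S mean in 76.7%. The mean of rnh203-K46W had the sign of the difference in 50 of the 63 higher windows and in 45 of the 66 lower ones. Over all 1214 windows it had that sign in 60.5%. The means of rnh201-G42S and rnh203-K46W both enter the difference, so their sign counts follow in part from how it is built. The windows with the lowest p had strong asymmetry in rnh201-G42S. On chromosome XIV from 450001 to 460000 (sacCer2 coordinates, as for all positions given), log2 of plus over minus was 0.17, -0.79, 0.16, -0.27 and -0.11 in rnh203-K46W libraries, against 1.99, 2.0 and 0.98 in rnh201-G42S libraries. The rnh203-K46W libraries lay around 0 and the rnh201-G42S libraries all favoured the plus strand, a difference of -1.82 ± 0.37 (SE, limma adjusted p 0.242). On chromosome XV from 980001 to 990000 the values were -0.98 to 0.26 in rnh203-K46W and 1.09 to 2.21 in rnh201-G42S, and on chromosome IV from 1060001 to 1070000 they were -0.57 to 0.06 and 0.54 to 1.41.

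Windows that favoured the minus strand in rnh201-G42S gave the mirror image. On chromosome VIII from 550001 to 560000 log2 of plus over minus was 0.46, 0.00, 0.10, -0.19 and 0.02 in rnh203-K46W libraries, against -1.21, -1.30 and -0.95 in rnh201-G42S libraries, again near 0 in the first genotype and one-sided in the second. The difference was 1.23 ± 0.27 (SE, limma adjusted p 0.242). The windows on chromosome IV from 370001 to 380000 and on chromosome III from 200001 to 210000 had opposite strands in every library of the genotypes. The first had 0.28 to 1.30 in rnh203-K46W and -1.07 to -0.49 in rnh201-G42S, and the second had 0.15 to 1.77 and -1.57 to -0.77. The rnh201-null libraries had the sign of rnh201-G42S in all 6 of these windows, with values of -0.12 and -0.79 in the window from 370001 and 0.30 and 1.54 in the window from 450001.

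Nuclear density per DNA depth was lower towards the chromosome ends in both genotypes, and in the outer 10 kb it was lower in rnh203-K46W. The DNA depth came from 1 sample per genotype. The density in the 10 kb at each chromosome end, over that in the rest of the nuclear genome, was 0.402, 0.415, 0.337, 0.276 and 0.325 in rnh203-K46W libraries, against 0.493, 0.475 and 0.437 in rnh201-G42S libraries. The groups did not overlap but lay close, at 0.415 and 0.437 on the facing sides. The means of 0.351 ± 0.058 (SD, n = 5) and 0.468 ± 0.029 (SD, n = 3) differed by -0.12 (two-sided exact permutation test, p = 0.0357, again the lowest this design allows; 0.0536 after adjustment over 6 tests). Without rnh203-K46W replicate 2 the difference was -0.13. With replicate 2 kept in, the difference was -0.028 with 5 kb (exact permutation p = 0.714) and -0.019 with 20 kb (exact permutation p = 0.857). That library was the highest in both, at 0.582 and 0.877. At 5 kb the rest of rnh203-K46W had 0.225 to 0.329, below the 0.353 to 0.419 of rnh201-G42S. At 20 kb replicate 1, at 0.636, also lay above all 3 rnh201-G42S libraries. Replicates 3 to 5 lay below them, at 0.429 to 0.471. The small differences thus depended on replicate 2 as well as on the distance chosen. Counting each detected position once within 10 kb gave -0.071 with overlapping groups (exact permutation p = 0.0714). In reads not divided by DNA depth the groups also overlapped within 10 kb. From 0 to 2, 2 to 5 and 5 to 10 kb, rnh203-K46W replicate 1 had 212, 249 and 713 of 78541 nuclear reads. Each is a larger share than in rnh201-G42S replicate 1, with 2263, 2890 and 8397 of 977264. rnh203-K46W replicate 4, with 2646, 5042 and 10910 of 1852994, had smaller shares than all 3 rnh201-G42S libraries. The difference in these reads was not tested.

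In finer bins the separation lay between 2 and 10 kb and again between 20 and 40 kb. From 2 to 5 kb the density over that of the interior beyond 80 kb was 0.209 to 0.278 in rnh203-K46W and 0.328 to 0.450 in rnh201-G42S. From 5 to 10 kb it was 0.247 to 0.499 in rnh203-K46W and 0.518 to 0.626 in rnh201-G42S, and from 20 to 40 kb it was 0.652 to 0.925 and 0.940 to 0.975. In reads not divided by DNA depth, each of these bins overlapped. rnh203-K46W replicate 1 had 249, 713 and 4463 of its 78541 nuclear reads in them, in the same order. Those are larger shares than 2890 of 977264 in rnh201-G42S replicate 1 (first bin). They also exceed 30692 and 220120 of 4107022 in rnh201-G42S replicate 3 (other bins). In the first 2 kb the groups overlapped, and rnh203-K46W replicate 2 had 1.09 there from 62 reads. From 10 to 20 kb rnh203-K46W spread from 0.506 to 1.29, against 0.710 to 0.733 in rnh201-G42S. A single position in that bin, described below, held 1.85% of the nuclear signal of rnh203-K46W replicate 2. Without it the bin had 0.596 ± 0.10 (SD, n = 5) in rnh203-K46W and 0.718 ± 0.013 (SD, n = 3) in rnh201-G42S, still with overlap, and the 20-kb difference became -0.11 (exact permutation p = 0.0714).

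**Figure D4:**
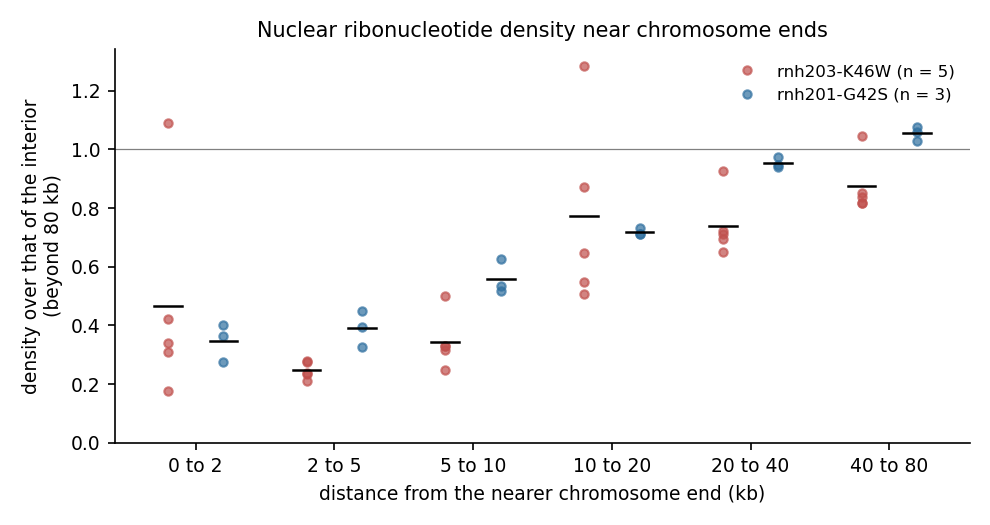
Nuclear ribonucleotide density per DNA depth by distance from the nearer chromosome end, over the density beyond 80 kb. Points are libraries and black lines are means. The groups are apart from 2 to 10 kb and from 20 to 40 kb, and from 10 to 20 kb the highest rnh203-K46W point, at 1.29, is replicate 2.

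Whole chromosomes and 1-kb windows told the genotypes apart less well. Density per chromosome did not overlap for chromosome XII, at 1.09 ± 0.06 times the nuclear mean in rnh203-K46W (SD, n = 5) and 1.21 ± 0.03 in rnh201-G42S (SD, n = 3), and for chromosome XVI, at 1.035 ± 0.044 and 0.96 ± 0.01. The DNA depth of chromosome XII over the nuclear median was 0.891 in the rnh203-K46W sample and 0.753 in the rnh201-G42S sample. With reads not divided by DNA depth the 2 genotypes overlapped on each of the 16 chromosomes. Among 1-kb windows 0 of 11575 (0%) passed limma, with 314 at an unadjusted p under 0.05, and 0 and 669 without rnh203-K46W replicate 2. The libraries did not overlap in 221 windows that were higher in rnh203-K46W (1.91%) and 239 that were lower (2.06%).

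Of the named windows, none passing, chromosome X from 89001 to 90000 had log2 values (window over the library mean, plus 0.1) of 1.99, 4.72, 0.42, 2.13 and 2.36 in rnh203-K46W libraries, against -2.19, 0.11 and 0.36 in rnh201-G42S libraries. All 5 of the first were above all 3 of the second, with replicate 2 the highest. The difference was 2.90 ± 0.75 (SE, limma adjusted p 0.9997), and it had an adjusted p of 0.0406 without rnh203-K46W replicate 3. The windows on chromosome X from 163001 to 164000 and chromosome V from 40001 to 41000 were higher in rnh203-K46W by 2.5 and 2.59. The window on chromosome I from 204001 to 205000 was lower by 1.95, at the floor set by the added 0.1 in 3 of the 5 rnh203-K46W libraries. Those on chromosome X from 350001 to 351000 and chromosome XIII from 897001 to 898000 were lower by 2.68 and 2.78, each with rnh203-K46W replicate 2 at that floor and the other 4 libraries nearer to rnh201-G42S. Genes in these windows are not named, since no annotation of this build was used here.

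Nuclear reads of rnh203-K46W shared a position more often. The chance that 2 nuclear reads fall on one position and strand does not depend on depth where reads are separate molecules. It was 1 in 7533, 1445, 66534, 58492 and 28499 in rnh203-K46W libraries, against 1 in 222242, 389207 and 2427637 in rnh201-G42S libraries. Each rnh203-K46W library was more concentrated than each rnh201-G42S library, and replicate 2 was the most concentrated. On the log10 scale the means were -4.22 ± 0.70 (SD, n = 5) and -5.77 ± 0.54 (SD, n = 3), a difference of 1.56 (two-sided exact permutation test, p = 0.0357, again the lowest this design allows; 0.0536 after adjustment over 6 tests). Without rnh203-K46W replicate 2 the difference was 1.29. The 10 most read positions held 2.86, 5.09, 0.883, 0.828 and 1.33% of the nuclear reads in rnh203-K46W libraries, against 0.255, 0.127 and 0.0383% in rnh201-G42S libraries. Leaving those 10 positions out of each library left a difference of 1.09. Most reads were nonetheless spread out in both genotypes. Among 5000 nuclear reads drawn from a library the expected number of positions was 4635.8, 4415.2, 4905.5, 4879.8 and 4809.5 in rnh203-K46W libraries, against 4949.9, 4969.2 and 4994.9 in rnh201-G42S libraries, without overlap but a difference of only 0.022 on the log10 scale. Repeated copies of one molecule and separate molecules at one position cannot be told apart here. The library with the fewest nuclear reads, 7291, was the most concentrated, and that with the most, 4107022, the least. rnh203-K46W replicate 4, with 1852994 reads, was nonetheless more concentrated than rnh201-G42S replicate 1, with 977264. A part played by depth was not tested.

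**Figure D5:**
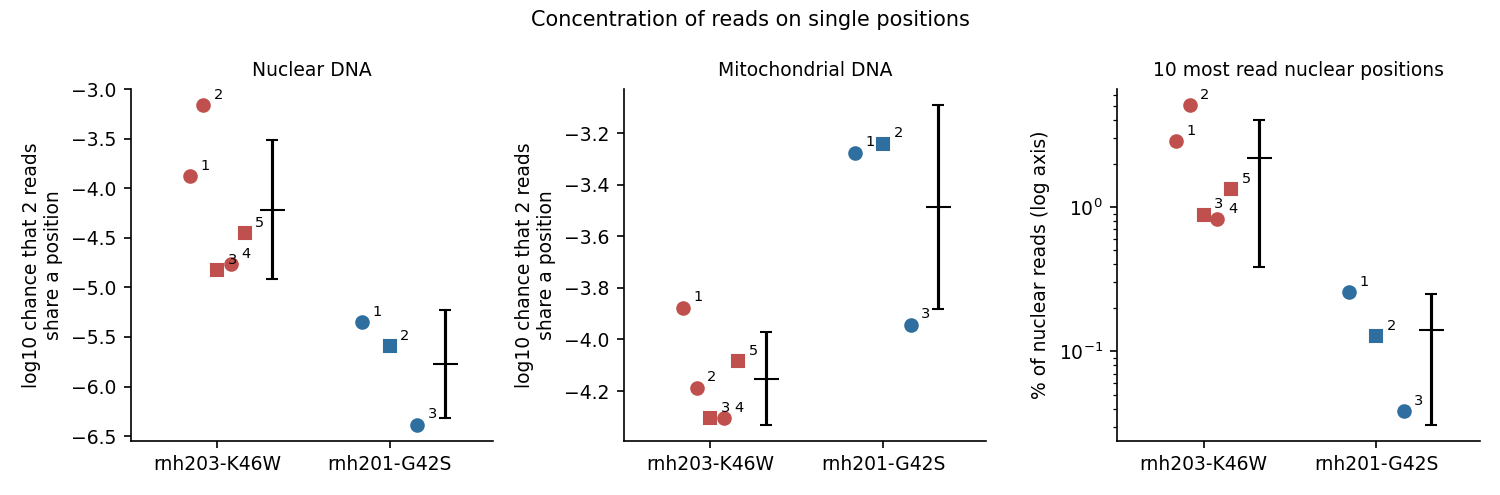
Concentration of reads on single positions in nuclear DNA (left) and mitochondrial DNA (middle), as log10 of the chance that 2 reads share a position and strand, and the share of nuclear reads on the 10 most read positions (right, log axis). Points are libraries numbered by replicate, circles set A and squares set B, and black bars the mean ± SD. In the nuclear panel the rnh203-K46W libraries lie at or above -4.82 and the rnh201-G42S libraries at or below -5.35, and in the mitochondrial panel the groups overlap.

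One position was among the 10 most read of 4 of the 5 rnh203-K46W libraries and also of rnh201-G42S replicate 3. On the plus strand of chromosome XIII at 911883, which lies 12.5 kb from the chromosome end, there were 45 to 2987 reads in rnh203-K46W libraries, against 16, 9 and 167 in rnh201-G42S libraries. As a share of nuclear reads that is 0.425, 2.36, 0.0180, 0.161 and 0.139% in rnh203-K46W, against 0.00164, 0.000619 and 0.00407% in rnh201-G42S. Every rnh203-K46W share of nuclear reads exceeded every rnh201-G42S share, the nearest pair being 0.0180 and 0.00407%. Set against mitochondrial reads the groups overlapped. rnh203-K46W replicate 3, with 45 reads beside 12187037, lay below rnh201-G42S replicate 3, with 167 beside 1596740. rnh203-K46W replicates 1 and 2 lay above all 3 rnh201-G42S libraries on that scale. It was the most read nuclear position in rnh203-K46W replicates 2 and 4, and 3 WT libraries had a value there. The plus strand of chromosome IV at 1104932, also with a value in 3 WT libraries, had 18, 11, 1, 437 and 4 reads in rnh203-K46W libraries, against 1, 1 and 19 in rnh201-G42S libraries. These reads were 0.000401 to 0.151% of nuclear reads in rnh203-K46W and 0.0000688 to 0.000463% in rnh201-G42S, which overlap.

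Some other highly read positions were read mainly in one set of rnh203-K46W libraries, and others in both. The minus strand of chromosome VI at 150827 held 0.145, 0.315 and 0.0992% of nuclear reads in the set A replicates 1, 2 and 4, and no read in replicates 3 and 5. The minus strand of chromosome IV at 1410806 held 0.0901 and 0.209% in the set B replicates 3 and 5, no read in replicates 1 and 2, and 0.000108% in replicate 4. In rnh201-G42S the first of these had 0.00107% in replicate 3, of set A, and no read in the other two, and the second had 0.000275% in replicate 2, of set B, and no read in the others. The plus strand of chromosome V at 40771 held 0.00127, 0.0686, 0.0649, 0.0111 and 0.168% in rnh203-K46W replicates 1 to 5, against no read, 0.000894 and 0.0000730% in rnh201-G42S replicates 1 to 3. The plus strand of chromosome XVI at 225590 held 0.00764, 0.206, 0.0116, 0.0620 and 0.0591% in rnh203-K46W libraries, against no read in rnh201-G42S replicates 1 and 2 and 0.000341% in replicate 3. Both were read in all 5 rnh203-K46W libraries, across the sets. These 4 positions were chosen after their values were seen.

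Positions fixed from the other genotypes gave opposite results. These measures were added after the values were seen. The 1000 positions with the highest mean enrichment in rnh201-null replicates 2 and 3 held 0.0571, 0.0613, 0.0193, 0.0440 and 0.0251% of the nuclear signal in rnh203-K46W libraries, against 0.192, 0.481 and 0.171% in rnh201-G42S libraries. All 8 were above the 0.00415% that an even spread would give, and the groups did not overlap. The value of rnh203-K46W replicate 2 rests on 4 reads. The difference was -0.24 percentage points (two-sided exact permutation p = 0.0357, the smallest possible) and -0.245 without rnh203-K46W replicate 2, and among the 10001 highest positions it was -0.41 with overlapping groups (exact permutation p = 0.393). The 6 positions with a value in 3 or more WT libraries held 0.364, 2.02, 0.0145, 0.153 and 0.109% in rnh203-K46W libraries, against 0.00178, 0.00180 and 0.00475% in rnh201-G42S libraries. In rnh203-K46W nearly all of it lay on the positions of chromosomes XIII and IV given above. The difference was 0.53 percentage points (two-sided exact permutation p = 0.0357), and 0.16 without rnh203-K46W replicate 2. Within set A it was 0.84 and within set B 0.0599. The 353 positions with a value in 2 or more WT libraries, a wider choice, held 0.0950 to 3.02% in rnh203-K46W and 0.0242 to 0.0646% in rnh201-G42S. With these 2 tests joined to the other 6, the adjusted p of each test at 0.0357 was 0.0476, so which side of 0.05 it falls on is set by the number of tests in the family.

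The positions that the libraries share cannot be compared by height without care. A value in the 3 rnh201-G42S libraries and in 4 rnh203-K46W libraries, all but replicate 2, was found at 68 nuclear positions, and in limma 38 of them (55.9%) were higher in rnh203-K46W and 0 (0%) lower. The libraries did not overlap at 36 of the 68 (52.9%), all higher in rnh203-K46W. At 61 of the 68, however, 1 read of rnh203-K46W replicate 1 gave a value above every rnh201-G42S value, and 36 of the 38 were among these 61. A position entered only where each shallow library had a read, so it could hardly be low there, and the 38 are given as a description. The largest difference was on the minus strand of chromosome XIV at 332277, with 2, 1, 19, 141 and 201 reads in rnh203-K46W libraries, against 1, 1 and 1 in rnh201-G42S libraries. As a share of nuclear reads that is 0.00255 to 0.0351% in rnh203-K46W and 0.0000243 to 0.000102% in rnh201-G42S. In rnh203-K46W replicates 1, 3 and 5 a read alone is 0.00127, 0.000401 and 0.000174%, already above those rnh201-G42S shares. The requirement of a read thus fixed the lack of overlap in these libraries. The plus strand of chromosome X at 89513, in the window on that chromosome described above, had 13, 15, 4, 442 and 194 reads against 1, 2 and 7. The minus strand of chromosome X at 230457 had 6, 5, 7, 954 and 157 reads against 3, 5 and 6. The plus strand of chromosome II at 502932 had 1, 0, 32, 73 and 882 reads against 1, 2 and 2. Of the 68 positions 1 had a mean below that of rnh201-G42S, the plus strand of chromosome I at 116152, with a difference of -0.30 on the log2 scale and overlapping groups.

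In mitochondrial DNA the placement of ribonucleotides did not separate the genotypes. The chance that 2 mitochondrial reads share a position and strand was 1 in 7533, 15386, 20130, 20195 and 12170 in rnh203-K46W libraries, against 1 in 1887, 1744 and 8762 in rnh201-G42S libraries. rnh203-K46W replicate 1 was more concentrated than rnh201-G42S replicate 3, so the groups overlapped. The difference on the log10 scale was -0.67 (two-sided exact permutation p = 0.0714, adjusted p 0.0857 over 6 tests), opposite in direction to that in nuclear DNA, and -0.66 without rnh203-K46W replicate 2. The plus strand carried 45.5, 47.9, 44.5, 47.9 and 46.1% of the mitochondrial signal in rnh203-K46W libraries, against 49.3, 46.2 and 46.02% in rnh201-G42S libraries. The difference of -0.78 percentage points was smaller than the SD of either group (two-sided exact permutation p = 0.571), and it was -1.16 without rnh203-K46W replicate 2 and 0.29 without rnh201-G42S replicate 1.

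Windows of the mitochondrial genome did not separate the genotypes in the test either. In limma 0 of 172 windows of 1 kb by strand (0%) passed, with 4 at an unadjusted p under 0.05, and 0 and 1 without rnh203-K46W replicate 2. The libraries did not overlap in 4 windows that were higher in rnh203-K46W (2.33%) and in 2 that were lower (1.16%). The 3 highest windows were the minus strand from 16001 to 17000 and the plus strand from 14001 to 15000 and from 20001 to 21000 in rnh203-K46W replicate 1, and the same 3 led in rnh203-K46W replicate 4 and rnh201-G42S replicate 3, all of set A. In rnh201-G42S replicate 1, of the same set, they ranked 5, 1 and 4. None of them was among the 5 highest in rnh203-K46W replicate 2, also of set A, and the first of them ranked 2 and 4 in the set B replicates 3 and 5 of rnh203-K46W. The plus-strand window from 7001 to 8000, one of those with the lowest p, had log2 values of 0.94, 0.42, 0.09, 0.02 and 0.41 in rnh203-K46W libraries, against 1.99, 1.14 and 1.13 in rnh201-G42S libraries. The groups did not overlap, and the difference was -1.05 ± 0.42 (SE, limma adjusted p 0.773). The plus-strand window from 14001 to 15000 had -1.16 and that from 20001 to 21000 had -0.77. The minus-strand windows from 82001 to 83000 and from 36001 to 37000 had 1.18 and 1.10, and the plus-strand window from 9001 to 10000 had 1.31, each with an adjusted p of 0.773 in limma.

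Single mitochondrial positions gave a like picture. At 7718 positions and strands with a value in all 8 libraries, limma called 0 (0%), with 449 at an unadjusted p under 0.05, and 0 and 287 without rnh203-K46W replicate 2. The libraries did not overlap at 298 that were higher in rnh203-K46W (3.86%) and at 72 that were lower (0.933%). The position with the lowest p, on the minus strand at 36652, had log2 enrichment factors of -0.28, 1.13, 1.90, 0.70 and 3.09 in rnh203-K46W libraries, against -2.29, -2.44 and -2.89 in rnh201-G42S libraries. All 5 libraries of the first lay above the 3 of the second, a difference of 3.85 ± 0.94 (SE, limma adjusted p 0.777). The plus strand at 7585, inside the window from 7001 described above, had 1.87 to 4.78 in rnh203-K46W and 4.94 to 7.44 in rnh201-G42S, a difference of -3.21 ± 0.81 (SE, limma adjusted p 0.777). The plus strand at 20324 had -4.87 to -1.29 and -0.17 to 1.68, and the minus strand at 60559 had 3.01 to 4.09 and 5.45 to 6.63. The plus strand at 26375 had 1.26 to 3.22 and -2.29 to -0.56, and the minus strand at 10957 had 2.17 to 2.72 and -1.77 to 1.15. Over these 7718 positions the mean Spearman correlation was 0.565 between libraries of different genotypes in one set and 0.255 between libraries of one genotype in different sets. The sets were cut from the mitochondrial profiles of these same libraries, so this is not a separate check.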

How the data were processed

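Per the labels' protocols and the submitters' processing notes, the authors trimmed reads (cutadapt), used the sacCer2 build and deposited, for each position and strand, a ratio called a normalized enrichment factor. Its formula is not given in the sources used here and was inferred from the table: ratios of libraries of a genotype within a row deviated by at most 3.1e-14 over 157734 pairs. The 8216036 rows were merged to 6633594 positions by chromosome, end and strand. Reads and DNA depth were recovered as whole numbers. At least 99.7% of values of the 8 libraries gave a whole depth within 0.001, and the recovery was tested on simulated data. Library values were compared by two-sided exact permutation tests (scipy 1.17.1), windows and positions by limma 3.58.1 in R 4.3.3 (lmFit, eBayes with trend, Benjamini-Hochberg adjusted p under 0.05), on log2(value + 0.1) for windows with a mean of at least 0.1. The log2 scale understates changes of low windows. Named windows and positions are the 5 with the largest difference in each direction among those past the threshold without overlap or, where none passed, the 3 with the lowest p. The members and lists were chosen with earlier results of these data known. Replicates are numbered in accession order. The base at the ribonucleotide was not analysed here.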

Additional observations from a re-analysis of the deposited data

Results flagged for a closer look

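Of the rnh203-K46W values examined for a library far from the other 4, 1 stood out: replicate 2 held 2.02% of its nuclear signal on the 6 positions with a value in 3 or more WT libraries, and the next highest rnh203-K46W library held 0.364%. That library has 7291 nuclear reads, and 183 of them lay on these positions. Such a rule marks about 1 group in 20 by chance.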

How the results depend on the processing

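No paired analysis was possible because the replicate numbers follow accession order and name no shared culture or batch. Leaving out each library in turn gave differences of -8.38 to -7.63 (log2) in nuclear-to-mitochondrial density, 1.25 to 1.77 (log10) in nuclear and -0.893 to -0.543 in mitochondrial concentration, -0.133 to -0.0984 in end density, -0.871 to -0.589 in asymmetry slope, and -1.36 to 0.289 percentage points in the mitochondrial plus-strand share, which turned positive without rnh201-G42S replicate 1. The share on WT positions ranged from 0.157 to 0.659 and that on rnh201-null positions from -0.295 to -0.14 percentage points. These designs cannot reach an exact permutation p under 0.05. Calls among 1-kb nuclear windows ranged from 0 to 2 and among shared nuclear positions from 9 (without rnh201-G42S replicate 3) to 35.

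The library series in the titles that holds all 5 rnh203-K46W libraries and rnh201-G42S replicate 3 gave -0.209 in mitochondrial concentration and 0.371 in plus-strand share. Within set A the differences were 0.843 on WT positions and -0.127 on rnh201-null positions, and within set B they were -1.19 in slope, 0.0599 on WT positions and -0.458 on rnh201-null positions. On the 10001 highest rnh201-null positions the difference was -0.413. Limma within set A called 23 nuclear windows. Within set B, where 2 libraries stood against 1 and rnh201-G42S had no replicate and was assumed to vary like rnh203-K46W, it called 1085 nuclear windows, 185 asymmetry windows, 3 mitochondrial windows and 231 mitochondrial positions, and the cause was not tested. It called 1 nuclear window with no filter, 1 asymmetry window with arrayWeights and 1 with set as a term without rnh203-K46W replicate 2. Positions with a value in all 8 libraries gave 16 of 22. Of single features, the minus-strand mitochondrial window from 36001 turned to -0.087 with each position counted once, and chromosome I at 116152 ranged from -1.13 to 0.30 over libraries left out, above 0 without rnh203-K46W replicate 4 (0.30), rnh201-G42S replicate 1 (0.116) or rnh201-G42S replicate 2 (0.123). The other alternatives kept the direction and the side of the threshold of the results compared as a whole. The base at the ribonucleotide was not run. The number of nuclear reads limits what single windows can show, as in rnh203-K46W replicate 2 with 7291 reads.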

Other observations

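The nuclear DNA depth of the 2 genotypes' DNA samples, 1 each, differed between chromosomes. Over its own nuclear median, chromosome I had 1.36 in the rnh203-K46W sample and 1.22 in the rnh201-G42S sample, and chromosome VI had 1.32 and 1.19. In 1-kb windows of mitochondrial DNA the log2 ratio of relative depth, rnh203-K46W over rnh201-G42S, had a median of -1.43 and a range of -1.99 to -1.27 over 86 windows, so the lower mitochondrial depth was even along that genome.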
